A study of Mus musculus with 19 samples.

Results

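Non-tumour liver of mutant mice was compared with control liver at 2 collection times in 1 joint fit, with the month as a block, to ask which transcripts differed with the mutant genotype across both times. Of the 19 libraries in the deposited table of gene counts, 15 entered, chosen by their labels and each from a different animal: 6 of mutants and 9 of controls. The other 4, from visible tumours, were left out. The mutants carry a doxycycline-regulated transgene, started by withdrawal of the drug, which makes the c-Jun~Fra2 dimer of the series title, while the labels give the genotype only as mutant. All animals were male C57BL/6 mice, the controls were littermates, and doxycycline was withdrawn from mutants and controls alike at 3 weeks of age. Livers were taken 2 months later from 3 mutants and 6 controls, and 9 months later from 3 mutants and 3 controls. The 9-month mutants also bore the tumours, and their samples used here came from areas with none visible to the eye; these samples are called tumour-free below. The promoter that drives the transgene is not given in the sources used here. Total counts per library ran from 15676749 to 22062341 in mutants and from 14294611 to 20879281 in controls. The months were sequenced in separate runs, so month and run cannot be told apart, but mutants and controls of the same month share a run.

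The labels call the tissue mostly hepatocytes, and mostly transformed hepatocytes for the tumour-free samples. All 8 hepatocyte markers on the list used here were detected in every group. Their summed level was 52998 to 67367 read counts scaled to library size (CPM) in the 2-month mutants against 123180 to 153330 CPM in the 2-month controls. At 9 months it was 57026 to 64015 CPM in tumour-free mutants against 122512 to 132782 CPM in controls. Of the 8 markers, 4 were called lower (Alb, Apoa1, Serpina1a and Ttr), while Hnf4a, Cps1, Ass1 and Trf did not pass the test. In these tissue samples, fewer cells of a type and less RNA per cell cannot be told apart.

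AP-1 transcription factors are dimers of a Jun protein with a Jun, Fos or ATF partner. Fra-2, the product of Fosl2, lacks the strong transactivation domain of c-Fos and acts with a Jun partner on the site TGACTCA. In liver, AP-1 is known for its part in regeneration, stress responses and tumour formation, while the adult hepatocyte programme of metabolism and secretion rests on nuclear receptors and on HNF4, FOXA and C/EBP factors.

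Fosl2 and Jun, the genes carried by the transgene, were high in every mutant. Fosl2 (ENSMUSG00000029135.10, chromosome 5, 32135801 to 32157842, build GRCm38) stood at 847, 778 and 617 CPM in the 2-month mutants against 8.04 to 18.3 CPM (median 11.1) in the 2-month controls. At 9 months it stood at 896, 865 and 752 CPM in tumour-free mutants against 19, 12.1 and 9.02 CPM in controls. Its joint log2 change was 5.97 ± 0.192 (standard error, SE; adjusted p = 3.47e-13), and the change was nearly the same at 2 and 9 months, 5.96 ± 0.225 and 5.98 ± 0.316. Jun (ENSMUSG00000052684.4, chromosome 4, 95049034 to 95052222) stood at 613, 652 and 514 CPM in the 2-month mutants against 10.1 to 24.9 CPM (median 16.3) in the 2-month controls. At 9 months the mutants were at 751, 642 and 418 CPM and the controls at 371, 39 and 22.1 CPM, so that control 1 came close to the lowest mutant. The joint change of Jun was 3.98 ± 0.685 (adjusted p = 0.000242) and 4.84 without that control. The 9-month change alone, 2.08 ± 1.11, did not pass (adjusted p = 0.208). The counts cannot tell endogenous from transgenic RNA.

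Myc (ENSMUSG00000022346.15, chromosome 15, 61985391 to 61990374), the growth-promoting transcription factor named in the series title, stood at 5.41, 8 and 13.9 CPM in the 2-month mutants against 3.17 to 11.8 CPM (median 7.25) in the 2-month controls. The 9-month tumour-free mutants had 36.4, 6.95 and 8.09 CPM, and the 9-month controls 18.2, 6.06 and 3.97 CPM. The groups overlapped at both times, and the highest value of each 9-month group lay in the library numbered 1. The joint change, 0.57 ± 0.457, did not pass (adjusted p = 0.314).

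Among 14 tested AP-1 subunits, 4 were called higher and 1 lower, at a median log2 change of 0.23. Beside Fosl2 and Jun, the risers were Atf3, a stress-induced repressor of the ATF branch (1.86 ± 0.643, adjusted p = 0.0245), and Jdp2, a Jun-binding repressor (1.35 ± 0.374, adjusted p = 0.00608). Atf7 was lower by a small step (-0.38 ± 0.0885, adjusted p = 0.00171), which did not pass when libraries were scaled by total count alone. Fos (-1.51), Fosb (0.35), Junb (-0.47) and Jund (-0.29) did not pass. Over all 14707 genes tested, 27.8% were called higher and 26.2% lower. Leaving out single libraries gave 3 to 5 subunits higher. Atf3 did not pass without 2-month mutant 3 (1.06, adjusted p = 0.143) or tumour-free mutant 1 (adjusted p = 0.0625), and changed by 2.59 without 9-month control 1. Without that control Fosb passed, with a positive change.

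The joint effect was broad. Of 14707 genes tested, 7952 (54.1%) were called by edgeR's quasi-likelihood test at an adjusted p under 0.05, with 4093 higher and 3859 lower in mutants. Much of it was small: 37.4% of the called genes changed by under 1.5-fold, and the median size of a called log2 change was 0.75. At least 2-fold changes were called in 1703 genes that rose and 1180 that fell, which is 11.6% and 8.02% of those tested. At least 10-fold changes were called in 340 genes that rose and 204 that fell.

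**Figure D1:**
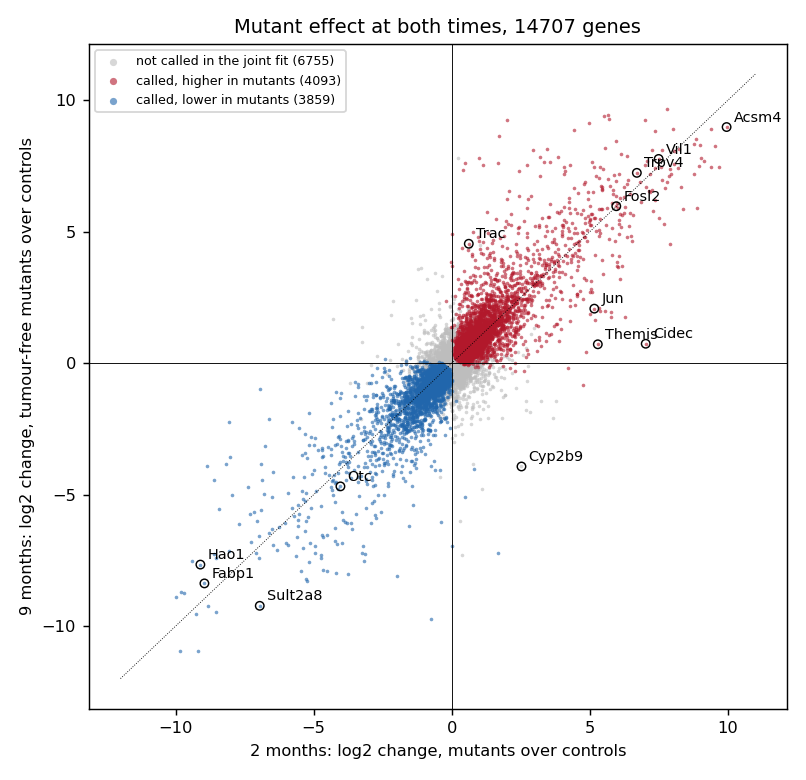
Log2 change of mutants over controls for 14707 genes, at 2 months on the horizontal axis and at 9 months (tumour-free mutants) on the vertical axis, each from a fit of that month alone. Red and blue points are the 4093 genes called higher and the 3859 called lower in the joint fit, and grey points the rest. The dotted line marks equal change. Called genes lie along it, with a few such as Cidec, Themis and Trac away from it. Cyp2b9, also away from it, was not called. Values of genes without counts in a group depend on the prior count.

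The joint calls drew on both months for some genes and on 1 month for others. A gene's change had the same sign in both months in 7910 of the 7952 called genes, 99.5%, against 60.6% of the genes not called. Fitted alone, the 2-month libraries called 6081 genes (41.3%) and the 9-month libraries 5052 (34.4%). The 2 monthly comparisons share no library, and 3797 genes passed in both. Of these, 3778 changed in the same direction, 62.1% of the 2-month calls and 74.8% of the 9-month calls, and 19 in opposite directions. All 3778 were also called jointly, 1959 higher and 1819 lower. Another 1934 joint calls passed at 2 months only, 995 at 9 months only, and 1245 in neither month alone. Since the joint fit holds the libraries of both months, this split describes its calls and is no independent test of them. The median SE of a log2 change was 0.146 in the joint fit, 0.178 at 2 months and 0.213 at 9 months.

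**Figure D2:**
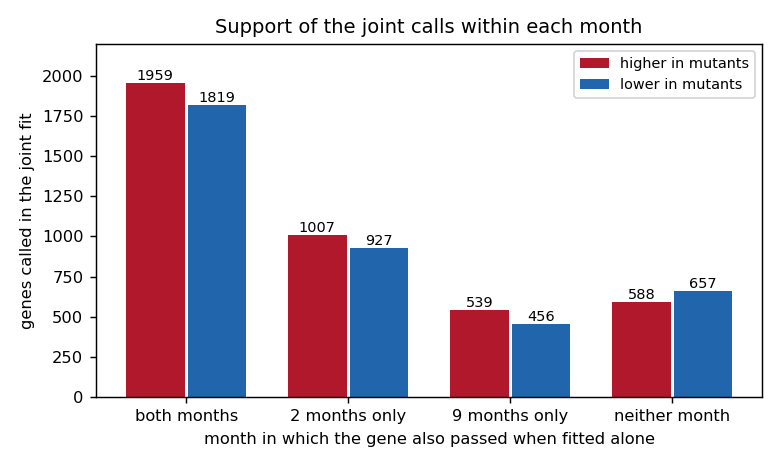
Number of genes called in the joint fit (vertical axis), by the month in which they also passed when that month was fitted alone (horizontal axis), with genes higher in mutants in red and lower in blue. The pair for both months, 1959 and 1819 genes, is the tallest, and 588 and 657 genes passed in neither month alone.

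In 4022 genes (27.3%) every mutant library lay beyond every control library of its month, in the same direction at both times, 2045 above and 1977 below. In 34 genes the groups were apart at both times but in opposite directions. Protein coding genes with that separation, a joint call and at least 5 CPM in the higher genotype in each month numbered 3077, with 1531 rises and 1546 falls, and the genes with the largest changes are taken from them.

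The 12 largest of these rises were Acsm4, Tcam1, Bmp8a, Slc15a1, Sult1e1, Muc13, Lrtm2, Meltf, Cdhr2, Adcy8, Add2 and Slc6a19, with joint log2 changes from 7.97 to 9.61. No control exceeded 1.09 CPM for any of the 12, and no mutant was below 3.72 CPM. Acsm4, a gene of the medium-chain acyl-CoA synthetase family, had 18.4, 24.2 and 15.8 CPM in the 2-month mutants, against 1 count in total over the 6 controls of that month. At 9 months it had 17.6, 9.76 and 9.14 CPM in tumour-free mutants, against 1 count in total over the 3 controls. The ratio of these sums was 1640 at 2 months (95% counting interval 293 to 64700) and 661 at 9 months (118 to 26200).

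Sult1e1, the sulfotransferase that inactivates oestrogens, had 149, 97 and 140 CPM in the 2-month mutants against 0.0678 to 0.502 CPM (median 0.113) in the 2-month controls. At 9 months it had 99.2, 50.4 and 57.6 CPM in tumour-free mutants against 0.277, 0.546 and 0.326 CPM in controls, and the joint change was 8.55 ± 0.316 (adjusted p = 5.24e-12). Tcam1, which encodes a testicular cell adhesion molecule, had 99.6, 78.7 and 70.5 CPM against 0 to 0.269 CPM (median 0.0754) in 2-month mutants and controls. The 9-month values were 71.2, 121 and 116 CPM in tumour-free mutants and 0.222, 0.437 and 0.326 CPM in controls (joint change 8.84 ± 0.243, adjusted p = 1.7e-13). Neither gene had an overlap between mutants and controls, and the mutant values of each differed by less than 3-fold among the 6 libraries.

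Several of the largest rises encode proteins of the gut or kidney apical surface. They are Muc13, a transmembrane mucin, Cdhr2, a protocadherin that links microvilli, Slc15a1, the peptide transporter PEPT1, and Slc6a19, the transporter of neutral amino acids. Muc13 had 20.9, 33.1 and 66.5 CPM in the 2-month mutants against 0 to 0.145 CPM (median 0.0718) in controls. In 9-month livers it had 148, 240 and 261 CPM in tumour-free mutants against 0.554, 1.09 and 0.38 CPM in controls, so both genotypes were higher at 9 months. The others are Bmp8a, a secreted factor of the BMP family, Lrtm2, Meltf, the iron-binding melanotransferrin, Adcy8, an adenylyl cyclase stimulated by calcium, and Add2, a protein of the membrane skeleton. Add2 had no count in the 6 controls of 2 months, which makes the 2-month mutants at least 184-fold higher (against a floor of 3 counts over the group). Joint values of such near-silent genes moved with single control libraries: Add2 changed by 8.07, and by 10.29 without 9-month control 1, Slc15a1 by 8.65, and by 9.55 without 2-month control 6, and Meltf by 8.39, and by 9.05 without 9-month control 2.

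The rises of at least 2-fold with the smallest p were those of Trpv4, Smpdl3b, Cacna2d4 and Hspa12a. Trpv4 (ENSMUSG00000014158.12, chromosome 5, 114622152 to 114658421), a calcium-permeable channel opened by warmth and cell swelling, had 84.3, 98.7 and 112 CPM in the 2-month mutants against 0.674 to 1.23 CPM (median 0.9954) in the 2-month controls. By 9 months it had 123, 146 and 132 CPM in tumour-free mutants against 0.998, 1.04 and 0.598 CPM in controls. Its joint change, 6.93 ± 0.143, had an adjusted p of 4.37e-15. Smpdl3b, a lipid-modulating phosphodiesterase of the sphingomyelinase family, followed at 6.86 ± 0.177, with 70.5, 58.1 and 51 CPM in 2-month mutants and 71.7, 74.6 and 65.1 CPM in tumour-free mutants. The 9 controls held 0.145 to 0.876 CPM of it at 2 months and 0.652 to 0.832 CPM at 9 months. Cacna2d4, a subunit of voltage-gated calcium channels, changed by 7.93 ± 0.207 and Hspa12a, a distant member of the HSP70 family, by 4.25 ± 0.118. The monthly log2 changes of these 4 genes differed by -0.80 (Cacna2d4) to 0.53 (Trpv4), and no product of genotype and month passed (adjusted p from 0.464 for Trpv4 to 0.705 for Cacna2d4).

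The promoter table from RefSeq (build GRCm38.p6) holds 250 bases before and 50 after each listed start of a gene, with 32851 windows for 27025 genes. It was searched on both strands for TGACTCA, the AP-1 site, and a gene counted if any of its windows held the site. Of 340 genes that rose at least 10-fold, 234 had a window, and 42 of these held the site, 17.9%. The share was 9.55% among genes that rose at least 2-fold (117 of 1225), 6.42% among those that fell at least 2-fold (53 of 826), 4.24% among tested genes that were not called (211 of 4981), and 5.95% over all 27025 genes of the table. The related site TGACGTCA, bound by ATF and CREB proteins, was in 2.61% of the windows of genes that rose at least 2-fold, against 3.71% of those not called and 2.03% over all genes. These are counts of letters in a window and show no binding. The site is shown with the 20 bases on each side, or 18 before it in Slc51b, where the window ends. The sequences are those of the 8 genes with the smallest p among separated genes that rose at least 10-fold and held it, because they pair the sequence with clear rises. These 8 were chosen after their values were seen. The site is in capitals, read along the gene's strand, and TGAGTCA is the site on the other strand.
Lpin3: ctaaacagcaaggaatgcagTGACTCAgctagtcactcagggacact
Acsm4: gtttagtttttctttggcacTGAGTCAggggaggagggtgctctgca
Abr: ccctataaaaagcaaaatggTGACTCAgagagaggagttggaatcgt
Slc37a2: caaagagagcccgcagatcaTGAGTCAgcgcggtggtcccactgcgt
Ddr1: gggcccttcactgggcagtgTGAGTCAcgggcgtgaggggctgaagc
Muc13: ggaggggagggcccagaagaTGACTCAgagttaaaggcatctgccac
Ypel4: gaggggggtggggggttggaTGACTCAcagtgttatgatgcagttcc
Slc51b: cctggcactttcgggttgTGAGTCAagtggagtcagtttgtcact

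These windows lie at chr2:160880512-160880558 (plus strand, Lpin3), chr7:119689881-119689927 (plus, Acsm4), chr11:76509416-76509462 (minus, Abr), chr9:37255819-37255865 (minus, Slc37a2), chr17:35702169-35702215 (minus, Ddr1), chr16:33793956-33794002 (plus, Muc13), chr2:84734030-84734076 (plus, Ypel4) and chr9:65422979-65423023 (minus, Slc51b). The site starts between 23 (Abr) and 232 bases (Slc51b) before the listed start that its window is built on. That start is not always the outer end of the gene. The windows of Abr (gene at 76416734 to 76622314) and Ddr1 (35681567 to 35704621) lie inside the gene. Lpin3, a phosphatidate phosphatase, rose by 3.42 ± 0.115 on the log2 scale. Abr, a regulator of small GTPases, rose by 4.14 ± 0.151, Slc37a2, a sugar-phosphate exchanger, by 3.34 ± 0.134, and Ddr1, a collagen receptor kinase, by 3.87 ± 0.17. Ypel4, of unknown function, rose by 7.52 ± 0.336. The whole window of Acsm4 (chr7:119689776-119690075, plus strand), the largest named rise, holds 1 such site.
Acsm4 promoter: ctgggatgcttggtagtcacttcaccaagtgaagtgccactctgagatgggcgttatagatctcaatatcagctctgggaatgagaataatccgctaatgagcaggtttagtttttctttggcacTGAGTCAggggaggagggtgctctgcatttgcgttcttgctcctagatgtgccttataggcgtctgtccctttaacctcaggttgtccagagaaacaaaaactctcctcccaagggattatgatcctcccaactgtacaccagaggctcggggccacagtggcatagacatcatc

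**Figure D3:**
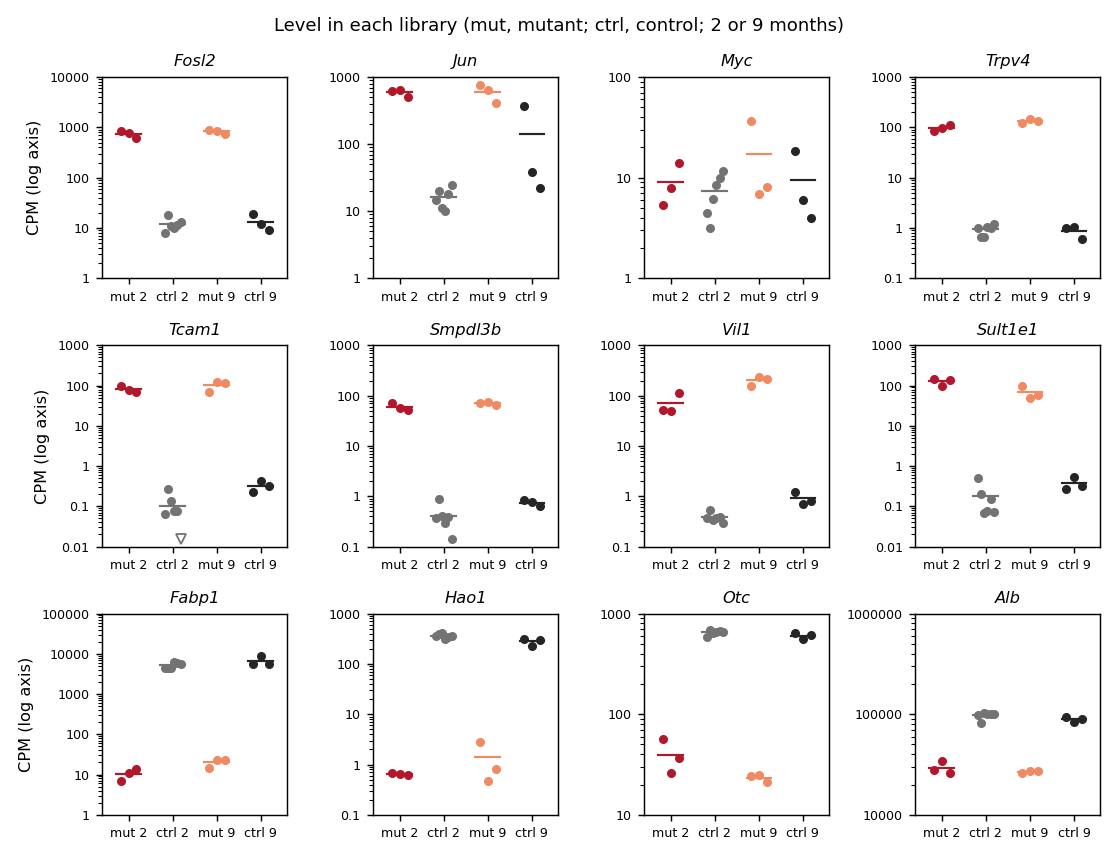
Level in each library (CPM, log axis) of Fosl2, Jun and Myc, 5 genes that rose and 4 that fell, for 2-month mutants (3), 2-month controls (6), tumour-free 9-month mutants (3) and 9-month controls (3), left to right in each panel. Points are libraries, bars are group means, and open triangles on the lower edge are libraries without a count. Mutants and controls are apart at both times in every panel but that of Myc, and Jun is high in 9-month control 1.

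The 12 largest falls were Hsd3b5, Mup7, Elovl3, Mup14, Slco1a1, Cyp4a14, Mup17, Fabp1, Hao1, Sult2a8, Car14 and Slc22a28, with joint log2 changes from -9.90 to -7.59. Most are products of the adult hepatocyte. Fabp1 (ENSMUSG00000054422.7, chromosome 6, 71199827 to 71205023), the main fatty acid binding protein of the liver, was left at 6.88, 10.8 and 13.6 CPM in the 2-month mutants against 4340 to 6175 CPM (median 5123) in the 2-month controls. At the later time it was at 14.2, 22.7 and 23.6 CPM in tumour-free mutants against 5621, 8988 and 5601 CPM in controls, and the joint change was -8.70 ± 0.274 (adjusted p = 2.92e-13). Hao1, the peroxisomal oxidase that makes glyoxylate from glycolate, was at 0.676, 0.661 and 0.6246 CPM against 317 to 403 CPM (median 362) in 2-month mutants and controls. In 9-month livers it was at 2.85, 0.481 and 0.8 CPM in tumour-free mutants against 318, 223 and 297 CPM in controls. Its joint change was -8.34 ± 0.396, and -8.95 without tumour-free mutant 1, the highest of the 6 mutants.

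Of these 12 genes, 6 are taken up here as known to be higher in male than in female mouse liver. The sex bias of the others was not examined. No list of such genes was counted here. The 6 are Hsd3b5, a steroid-metabolising enzyme, Slco1a1, an organic anion carrier, Elovl3, a fatty acid elongase, and the major urinary protein genes Mup7, Mup14 and Mup17. Slco1a1 was at 0.846, 0.781 and 0.982 CPM in the 2-month mutants against 461 to 647 CPM (median 520) in the 2-month controls. By 9 months it was at 0.168, 0.222 and 0.169 CPM in tumour-free mutants against 211, 45 and 175 CPM in controls (joint change -9.34 ± 0.379, adjusted p = 1.18e-11). Hsd3b5 had no count in the 3 tumour-free mutants, at least 284-fold lower than the 9-month controls at 19.6, 1.04 and 13.8 CPM. The Mup genes varied widely among controls, and the 6 controls of 2 months split. Mup7 was at 1.32, 7.48 and 3.66 CPM in controls 1 to 3 and at 1309, 1739 and 1466 CPM in controls 4 to 6. The lowest control lay just above the highest of the 2-month mutants, at 1.24, 0.541 and 0.714 CPM. Mup14 and Mup17 split in the same way, so the size of the 2-month falls of these 3 genes rests mostly on controls 4 to 6. Reads of the near-identical Mup copies may be split between them, so their single values are uncertain. With limma voom none of the 3 Mup genes passed (adjusted p = 0.296 for Mup7, 0.158 for Mup14 and 0.17 for Mup17). Without a count in the tumour-free mutants, Mup14 was at least 289-fold lower there than in the 9-month controls.

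The other large falls were Cyp4a14, a fatty acid hydroxylase, Sult2a8, a bile acid sulfotransferase, Car14, a membrane carbonic anhydrase, and Slc22a28, an organic anion transporter. Cyp4a14 was at 0.113, 0.18 and 0.669 CPM in the 2-month mutants. The 2-month controls split here too (median 92.7), with 23.9, 11.2 and 5.01 CPM in controls 1 to 3 and 390, 162 and 191 CPM in controls 4 to 6. At 9 months Cyp4a14 was at 0.756, 1.18 and 0.969 CPM in tumour-free mutants against 558, 450 and 1068 CPM in controls. Sult2a8 changed by -9.23 at 9 months and by -6.95 at 2 months (difference -2.28 on the log2 scale, adjusted p of the product term 0.00948). Car14 changed by -7.79, and by -8.45 without tumour-free mutant 3. Slc22a28 changed by -7.59, and by -8.45 without tumour-free mutant 2, with 2 counts in total over the 2-month mutants and 3 over the tumour-free mutants.

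With Fabp1, the falls of at least 2-fold with the smallest p were Otc, Acaa1b and Inhbc. Otc, the urea cycle enzyme that makes citrulline, was at 56.5, 25.8 and 36.8 CPM in the 2-month mutants against 584 to 686 CPM (median 659) in the 2-month controls. At the later time it was at 24.1, 24.7 and 21.1 CPM in tumour-free mutants against 648, 555 and 607 CPM in controls (-4.31 ± 0.181, adjusted p = 8.84e-12). Acaa1b, a peroxisomal thiolase, was at 51.9, 67.6 and 56.4 CPM against 622 to 943 CPM (median 777) at 2 months, and at 121, 121 and 117 CPM against 1905, 2933 and 1726 CPM at 9 months, in mutants and controls. Its level was higher at 9 months in both genotypes, and its change was -3.72 at 2 months and -4.19 at 9 months (joint -3.92 ± 0.165, adjusted p = 9.13e-12). Inhbc, the liver gene of the activin C chain, was at 5.58, 4.45 and 4.11 CPM in the 2-month mutants against 60.5 to 96.2 CPM in the 2-month controls, and at 4.03, 5.29 and 5.26 CPM in tumour-free mutants against 83.7, 81.8 and 103 CPM in the 9-month controls (-4.15 ± 0.135, adjusted p = 3.76e-13).

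The site CAAAGTCCA, a form of the sequence bound by HNF4, was in 2.42% of the windows of genes that fell at least 2-fold (20 of 826), in 1.14% of those that rose at least 2-fold (14 of 1225), in 2.14% of those that rose at least 10-fold (5 of 234), in 0.422% of those not called (21 of 4981) and in 0.555% over all genes of the table. The pool of genes and the chromosome left out were those used for the AP-1 sequences. The 4 genes with the smallest p among separated genes that fell at least 2-fold and held the site, chosen after their values were seen, are shown with the site in capitals, because they pair it with falls that were apart from controls in both months.
Cyp8b1: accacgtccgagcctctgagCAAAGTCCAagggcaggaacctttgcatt
Aspdh: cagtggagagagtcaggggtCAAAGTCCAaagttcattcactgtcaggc
Slc3a1: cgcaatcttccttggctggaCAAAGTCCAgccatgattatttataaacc
Agxt2: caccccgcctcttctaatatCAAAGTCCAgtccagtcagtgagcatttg
They lie at chr9:121916344-121916392 (minus, Cyp8b1), chr7:44465363-44465411 (plus, Aspdh), chr17:85028288-85028336 (plus, Slc3a1) and chr15:10358492-10358540 (plus, Agxt2). Cyp8b1, the sterol 12-alpha-hydroxylase of bile acid synthesis, fell by 6.56 ± 0.405 on the log2 scale. Slc3a1, a subunit of the cystine transporter, fell by 2.46 ± 0.209, Aspdh, an aspartate dehydrogenase, by 1.63 ± 0.137, and Agxt2, a mitochondrial aminotransferase, by 1.58 ± 0.138.

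The lists of genes that follow are read against the 27.8% of all tested genes called higher and the 26.2% called lower, and against a median log2 change over all genes of 0.000745. They are described by counts and medians, without a test of the list. Scaling by total count alone, in place of TMM, moved the median of all genes to 0.355 and the split of calls to 7550 higher and 1786 lower.

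**Figure D4:**
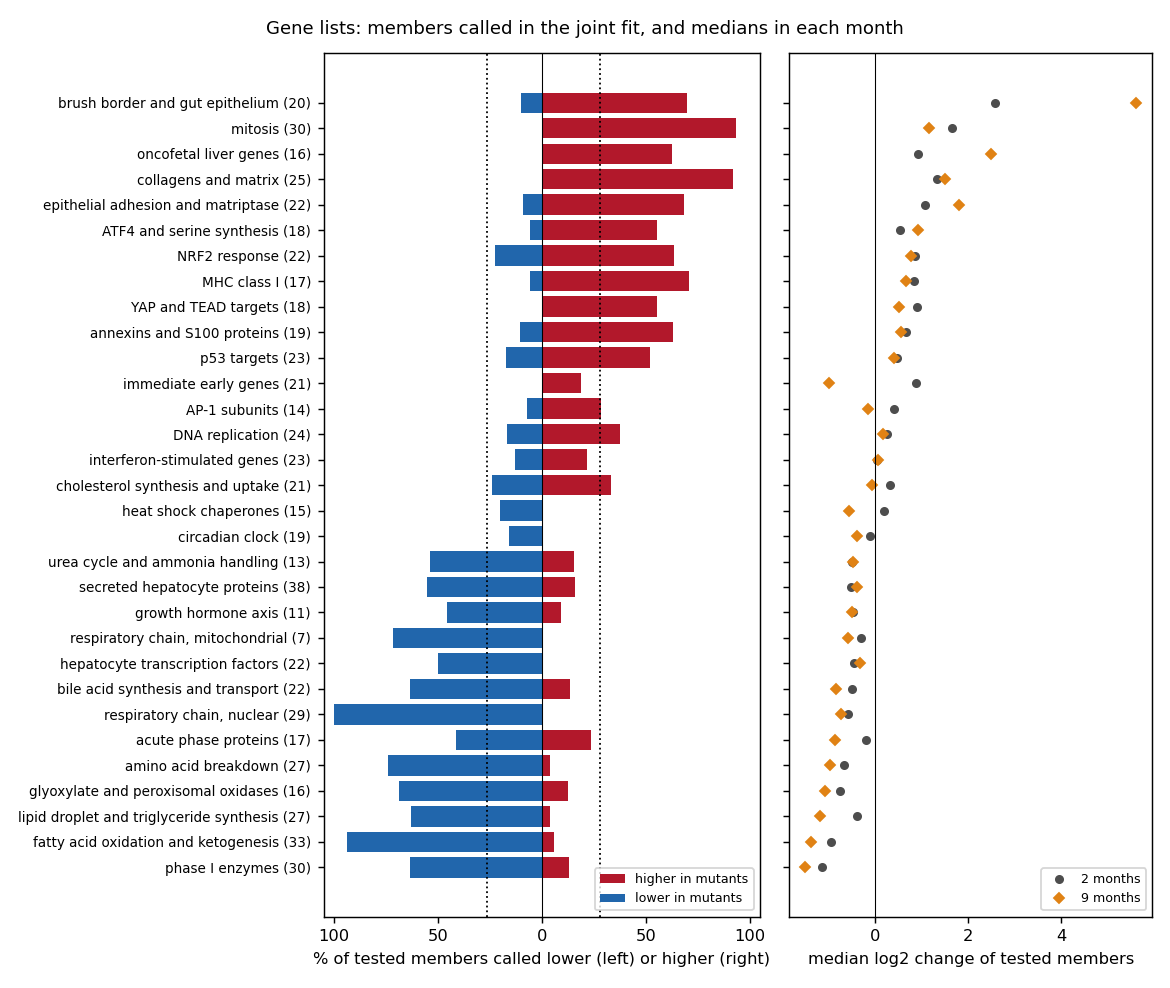
Share of the tested members of 31 gene lists called higher (red, to the right) or lower (blue, to the left) in the joint fit, with the number tested in brackets, and the median log2 change of the members in each month (right panel, circles 2 months, diamonds 9 months). Dotted lines mark 27.8% and 26.2%, the shares over all tested genes. Lists of hepatocyte metabolism sit at the bottom with falls, and lists of brush border, mitosis and matrix genes at the top with rises.

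Hepatocyte transcription factors fell in 11 of 22 tested genes and rose in none (median -0.46). The falls were of nuclear receptors above all: Nr1i3 (CAR, a sensor of drugs), Nr1h3 (LXR alpha, an oxysterol sensor), Nr1h4 (FXR, the bile acid receptor), Nr1i2, Ppara, Nr5a2, Nr0b2 and Rxra. Nr1i3 was at 91.4, 38.2 and 23.6 CPM in the 2-month mutants against 246 to 546 CPM (median 389) in the 2-month controls, and at 61.8, 46.5 and 70.5 CPM against 501, 897 and 685 CPM in 9-month tumour-free mutants and controls. It was the largest fall on the list (-3.18 ± 0.308, adjusted p = 4.03e-07). Nr1h3 (-0.69 ± 0.0711) and Nr1h4 (-0.53 ± 0.0906) fell by less. Hnf4a (0.22), Foxa1 (0.15), Foxa2 (-0.10), Foxa3 (-0.51), Cebpa (-0.16) and Cebpb (-0.38) did not pass. By total count alone the list had 6 members higher and 4 lower, and the falls of Nr1h4, Nr1i2, Ppara, Nr5a2 and Rxra did not pass. The fall of Onecut1, another member, rested on 2-month controls 4 to 6, at 15.1, 21.2 and 18.4 CPM. Controls 1 to 3, at 2.01, 2.83 and 2.51 CPM, overlapped the 2-month mutants at 1.2 to 2.41 CPM. At 9 months tumour-free mutants (1.56 to 3.11 CPM) and controls (1.64 to 4.67 CPM) overlapped too. Onecut1 is among the genes called only jointly.

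The growth hormone axis, through which pituitary pulses set sex-biased liver genes, fell in 5 of 11 genes and rose in 1 (median -0.40). Igfals, which stabilises circulating IGF1, was at 41.9, 32.8 and 20.8 CPM in the 2-month mutants against 112 to 139 CPM (median 129) in the 2-month controls. In 9-month livers it was at 36.1, 36.4 and 26.2 CPM in tumour-free mutants against 142, 115 and 139 CPM in controls (-2.01 ± 0.135, adjusted p = 2.72e-09). The receptor Ghr fell by 1.11 ± 0.136, Stat5a by 0.77 ± 0.116, Stat5b by 0.32 and Igf1 by 0.40. Jak2 was higher by 0.36. Stat5b did not pass without any 1 of the 2-month mutants, 9-month control 1, or tumour-free mutants 2 or 3, and neither Stat5b nor Igf1 passed by total count alone. Socs2 (-0.72) and Cish (-0.71), targets of the pathway, did not pass.

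Fatty acid oxidation and ketogenesis genes nearly all fell. Of 33 tested members 31 fell and 2 rose, with a median of -1.17, and in 29 every mutant lay below every control of its month at both times. Eci1, a mitochondrial enoyl-CoA isomerase, was at 43.3, 36.3 and 31.2 CPM in the 2-month mutants against 132 to 148 CPM (median 139) in the 2-month controls. By 9 months it was at 45, 38.8 and 41.6 CPM in tumour-free mutants against 151, 191 and 199 CPM in controls (-2.00 ± 0.0934, adjusted p = 2.94e-11). Fabp1 and Acaa1b, described above, belong to the list. The 2 risers were Acot3, an acyl-CoA thioesterase (2.55), and Fgf21, a hormone of fasting (1.65). Acot3 changed by 4.21 at 2 months and by -0.19 at 9 months (difference -4.40, adjusted p = 0.00298).

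Peroxisomal oxidases and glyoxylate enzymes fell in 11 of 16 genes and rose in 2 (median -0.82). Prodh2, which breaks down hydroxyproline, was at 17.6, 10.5 and 3.88 CPM against 211 to 269 CPM (median 224) in 2-month mutants and controls, and at 12.4, 14.8 and 18.6 CPM against 276, 316 and 282 CPM at 9 months (-4.37 ± 0.256, adjusted p = 8.61e-10). Hao1 (-8.34) and Hao2 (-5.61), oxidases of 2-hydroxy acids, fell further. Acox3, an oxidase of branched-chain acyl-CoA, rose. It was at 338, 386 and 357 CPM in the 2-month mutants against 36.5 to 53.7 CPM (median 48) in the 2-month controls, and at 344, 357 and 298 CPM in tumour-free mutants against 43.6, 36.7 and 40.3 CPM in the 9-month controls (3.00 ± 0.0899, adjusted p = 2.59e-13). Acox2 did not pass (0.07).

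Genes of lipid droplets and triglyceride synthesis fell in 17 of 27 and rose in 1 (median -0.87), and 9 of the 27 had a product term past the threshold, against 1.52% of all tested genes. Me1, the malic enzyme that supplies NADPH, changed by -3.89 at 9 months and by -2.63 at 2 months (difference -1.27, adjusted p = 0.0386). The mutants had 14.5, 25.6 and 30.9 CPM against 115 to 176 CPM (median 144) in controls at 2 months, and 28.1, 20.5 and 23.9 CPM against 306, 394 and 379 CPM at 9 months. The mutants of both times overlapped, and the 9-month controls were above those of 2 months. Fitm1, which helps droplets form, also had higher controls at 9 months (difference -1.55, adjusted p = 0.0368), with 2-month mutants at 2.77 to 4.28 CPM against 19 to 32.3 CPM in controls, and tumour-free mutants at 6.02 to 8.52 CPM against 115, 227 and 150 CPM in controls. The mutants of Fitm1 were higher at 9 months too. Cidea, a droplet fusion protein, was at 0 to 0.0446 CPM in the 2-month mutants against 0 to 0.145 CPM in the 2-month controls, and at 0.0421 to 0.084 CPM in tumour-free mutants against 11.9, 107 and 64.4 CPM in the 9-month controls. Groups were apart only at 9 months, and the joint change of -9.32 was -8.58 without 9-month control 2. Cidec, the related gene that rose (4.68 ± 1.07, adjusted p = 0.00215), is taken up with the genes that differed between months.

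Cholesterol genes were mixed, with 7 of 21 higher and 5 lower (median 0.17). Sqle, which oxidises squalene on the way to cholesterol, rose (0.78 ± 0.137), and Stard4, a sterol carrier, fell (-1.00 ± 0.139, adjusted p = 1.4e-05).

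All 29 tested nuclear genes of the respiratory chain fell, by small and even steps (median -0.66; -0.58 at 2 months and -0.73 at 9 months), and none by 2-fold or more. In 26 of them every mutant lay below every control of its month at both times. Cyc1, of complex III, was at 146, 145 and 108 CPM in the 2-month mutants against 208 to 237 CPM (median 224) in the 2-month controls, and at 150, 150 and 155 CPM in tumour-free mutants against 235, 264 and 258 CPM in the 9-month controls (-0.74 ± 0.0801, adjusted p = 8.43e-07). Uqcrc2 (-0.74 ± 0.083) and Ndufa9 (-0.66 ± 0.075), of complexes III and I, changed alike. By total count alone 23 of the 29 were lower and none higher. Of the 13 mitochondrially encoded genes, 5 of 7 tested fell, among them mt-Nd6 (-1.36 ± 0.17), mt-Cytb (-0.91 ± 0.143) and mt-Co1 (-0.52 ± 0.13). The other 6 (mt-Nd3, mt-Nd4l, mt-Co2, mt-Co3, mt-Atp6 and mt-Atp8) held at most 2 counts in any library and are listed at or near 0 in a transcriptome where they are abundant, so the table does not give their level. By total count alone only 2 of the 7 were lower.

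In the urea cycle and ammonia handling, 7 of 13 genes fell and 2 rose (median -0.26). Beside Otc, Arg1, the last enzyme of the cycle, fell. It was at 353, 672 and 291 CPM in the 2-month mutants against 1204 to 1610 CPM (median 1435) in the 2-month controls, and at 680, 326 and 433 CPM against 1518, 1683 and 1506 CPM at 9 months (-1.71 ± 0.187, adjusted p = 9.52e-07). Cps1 (0.34), Ass1 (-0.06) and Asl (-0.26) did not pass. Glul, the glutamine synthetase of pericentral hepatocytes, fell by 1.46, and Rhbg, an ammonia channel of the same cells, rose by 1.81 ± 0.234. Slc25a15, the ornithine carrier, rose by 0.86. By total count alone the list's median was 0.0817, with 3 members higher and 6 lower.

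Amino acid breakdown fell in 20 of 27 genes and rose in 1 (median -0.81). Ftcd, of histidine breakdown, was at 268, 264 and 184 CPM in the 2-month mutants against 572 to 762 CPM (median 622) in the 2-month controls, and at 235, 214 and 229 CPM in tumour-free mutants against 641, 816 and 722 CPM in the 9-month controls (-1.54 ± 0.109, adjusted p = 5.57e-09). Kmo, of tryptophan breakdown, fell by 1.47 ± 0.16 and Bckdha, of branched-chain amino acid breakdown, by 0.97 ± 0.105. Mat1a, which makes S-adenosylmethionine, was the riser (0.49).

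Phase I enzymes, the cytochrome P450s and other oxidases and esterases of drugs and steroids, fell in 19 of 30 genes and rose in 4 (median -1.24). The Cyp2c members fell in 6 of 6, from Cyp2c29 (-0.69; it did not pass without 2-month mutants 2 or 3 or by total count alone) to Cyp2c38 (-4.81). Cyp2c37 was at 34.5, 10.8 and 12.8 CPM in the 2-month mutants against 237 to 309 CPM (median 290) in the 2-month controls, and at 15.7, 4.62 and 10.4 CPM in tumour-free mutants against 330, 154 and 182 CPM in the 9-month controls (-4.09 ± 0.343, adjusted p = 1.11e-07). P450 genes of such families are close in sequence, and their counts may share reads. Ces3a (-2.07 ± 0.162) and Adh1 (-1.83 ± 0.159) fell too, while Cyp2b10 (1.77), Cyp4v3 (1.38), Cyp3a11 (0.57) and Cyp1a2 (0.48) rose.

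Bile acid genes fell in 14 of 22 and rose in 3 (median -0.61). The uptake carriers Slco1a1 (-9.34), Slco1a4 (-5.04 ± 0.286) and Slc10a1 (-1.84) fell, as did the enzymes Cyp8b1 (-6.56), Cyp7b1 (-3.02) and Cyp27a1 (-0.82), whereas Cyp7a1, the rate-limiting enzyme, did not pass (0.37). The risers were all exporters. Slc51b, a subunit of the basolateral exporter OST, was at 21.2, 31.3 and 30.6 CPM in the 2-month mutants against 0.075 to 0.542 CPM (median 0.463) in the 2-month controls. At the later time it was at 12.4, 26 and 25.7 CPM in tumour-free mutants against 0.499, 0.873 and 0.38 CPM in controls (5.73 ± 0.268, adjusted p = 3.74e-11). Abcc4, a basolateral pump, rose by 2.51, and Abcb4, the canalicular phospholipid exporter, by 1.47. Slc51a, which encodes the other subunit of OST, did not pass the expression filter.

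Secreted hepatocyte proteins fell in 21 of 38 genes and rose in 6 (median -0.40). Alb was at 28050, 34420 and 25750 CPM in the 2-month mutants against 82370 to 102400 CPM (median 100300) in the 2-month controls, and at 25800, 27510 and 27110 CPM in tumour-free mutants against 94020, 83520 and 88970 CPM in the 9-month controls (-1.73 ± 0.109, adjusted p = 1.19e-09). Apoa1, the main protein of HDL, fell by 2.14 ± 0.165, and Serpina6, the corticosteroid carrier, by 5.08 ± 0.327. C8a, of the terminal complement complex, fell by 5.05. Apoa4, of intestinal and hepatic lipoproteins, rose by 4.35, and Apob by 0.84. Apoe (-0.12), Trf (0.13) and Fgb (-0.16) did not pass.

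Acute phase proteins, secreted by hepatocytes in inflammation, fell in 7 of 17 genes and rose in 4 (median -0.76), and Orm genes and Lcn2 were the risers. Hp, haptoglobin, was at 464, 462 and 790 CPM in the 2-month mutants against 2275 to 3132 CPM (median 2652) in the 2-month controls, and at 760, 848 and 818 CPM in tumour-free mutants against 2844, 4397 and 4088 CPM in the 9-month controls (-2.22 ± 0.153, adjusted p = 3.65e-09). Serpina3n (-2.21 ± 0.152) and Saa3 (-3.07 ± 0.259) fell as well. Orm3 (4.11), Orm2 (3.82), Orm1 (0.61) and Lcn2 (2.36, and 1.58 without 2-month mutant 3) rose. The Orm genes are near copies of each other, and their counts may share reads.

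The genes of the brush border and gut epithelium had the largest list median, 4.19, with 14 of 20 tested members higher and 2 lower. Vil1, the actin bundler of microvilli, was at 51.2, 48.5 and 113 CPM in the 2-month mutants against 0.289 to 0.539 CPM (median 0.376) in the 2-month controls. In 9-month livers it was at 153, 233 and 215 CPM in tumour-free mutants against 1.22, 0.71 and 0.815 CPM in controls (7.65 ± 0.23, adjusted p = 2.92e-13). Cdhr2 (8.18 ± 0.303), Muc13 (8.50 ± 0.35), Mep1a (8.85), Krt20 (7.28), Tff1 (6.85), Myo7b (5.64), Eps8l3 (5.07) and Cdh17 (4.90) rose with it. Without 9-month control 2 the changes of Mep1a, Krt20 and Myo7b were 9.78, 8.01 and 6.26. That of Eps8l3 was 5.76 without 2-month control 3, that of Tff1 5.97 without tumour-free mutant 1, and that of Cdh17 4.20 without tumour-free mutant 2. Lgals4 (-2.33) and Anpep (-1.35) fell, and Dpp4 (-0.09) did not pass. The median was 2.57 at 2 months and 5.60 at 9 months, and 1 of the 20 product terms passed.

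Epithelial adhesion and matriptase genes rose in 15 of 22 and fell in 2 (median 1.32). St14, the membrane protease matriptase, was at 52.9, 83.6 and 118 CPM in the 2-month mutants against 0.758 to 1.42 CPM (median 1.22) in the 2-month controls, and at 118, 183 and 160 CPM in tumour-free mutants against 1.5, 1.47 and 1.47 CPM in the 9-month controls (6.44 ± 0.192, adjusted p = 2.79e-13). Its inhibitor Spint1 rose by 4.29, the protease Tmprss2 by 3.42 ± 0.158, the laminin receptor subunit Itga6 by 3.24 ± 0.177 and E-cadherin, Cdh1, by 3.46. Lamb3, a chain of an epithelial laminin, fell by 2.10.

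Annexins and S100 proteins, which bind calcium and membranes, rose in 12 of 19 genes and fell in 2 (median 0.57). S100a6 was at 34.2, 40.9 and 78.3 CPM in the 2-month mutants against 1.35 to 2.89 CPM (median 2.15) in the 2-month controls, and at 53.5, 84.6 and 119 CPM in tumour-free mutants against 1.44, 6.6 and 2.39 CPM in the 9-month controls (4.59 ± 0.305, adjusted p = 8.92e-09). S100a11 (3.76 ± 0.271) and Anxa2 (3.16 ± 0.254) rose too, and in all 3 genes 9-month control 2 was the highest control.

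Of 18 genes regulated by ATF4 or of serine synthesis, 10 rose and 1 fell (median 0.81). They include Slc7a11, the cystine importer (6.04), Asns, which makes asparagine (5.19), Vldlr (3.19 ± 0.225), Mthfd2 of mitochondrial folate metabolism (1.95 ± 0.217) and Slc7a5, an amino acid carrier (1.22 ± 0.16). Slc7a11 changed by 4.71 without tumour-free mutant 1 and by 6.75 without 9-month control 2. Atf4 itself (-0.14), Trib3 (-0.36) and Chac1 (-0.03) did not pass. NRF2 genes rose in 14 of 22 and fell in 5 (median 0.80). Srxn1, which restores peroxiredoxins, was at 247, 256 and 272 CPM in the 2-month mutants against 42.2 to 58.1 CPM (median 48.6) in the 2-month controls, and at 426, 262 and 240 CPM in tumour-free mutants against 61.8, 90.3 and 85.8 CPM in the 9-month controls (2.21 ± 0.137, adjusted p = 9.83e-10). G6pdx and Pgd, of the pentose phosphate pathway, rose by 2.06 and 1.5. The glutathione transferases split, with Gsta1 (2.71, and 3.41 without 9-month control 2) and Gsta2 (2.00) higher and Gstm3 (-2.83), Gstm2 (-1.52), Gsta4 (-1.02) and Gstm1 (-0.73) lower.

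Targets of p53 rose in 12 of 23 genes and fell in 4 (median 0.40). Tnfrsf10b, a death receptor, was at 2.99, 2.65 and 3.75 CPM in the 2-month mutants against 0.225 to 0.651 CPM (median 0.42) in the 2-month controls, and at 4.74, 4.55 and 3.83 CPM in tumour-free mutants against 0.665, 0.819 and 0.924 CPM in the 9-month controls (2.68 ± 0.206, adjusted p = 1.51e-08). The increase of Cdkn1a, which encodes the p21 cell cycle inhibitor, was 3.04. Phlda3 rose by 2.32 ± 0.214 and Zmat3 by 1.35 ± 0.103. Bbc3 (-1.46), Gdf15 (-1.60), Fas (-0.79) and Ei24 (-0.56) fell.

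Of 18 targets of YAP and TEAD, 10 were higher and none lower (median 0.75). Tgfb2, a ligand of the TGF-beta family, was at 9.24, 14.1 and 19.6 CPM in the 2-month mutants against 0.606 to 1.36 CPM (median 0.999) in the 2-month controls, and at 15.7, 12.7 and 10.6 CPM in tumour-free mutants against 0.665, 0.928 and 0.978 CPM in the 9-month controls (3.85 ± 0.196, adjusted p = 8.11e-11). Crim1 (2.00 ± 0.115) and Ajuba (2.22 ± 0.18) rose. The widely used readouts Ccn1 (0.45) and Ccn2 (0.51) did not pass, though Ccn1 passed without 9-month control 1. Of 16 oncofetal genes, 10 were higher and none lower (median 1.44), among them Scd2 (4.13 ± 0.139), Dlk1 (3.83), Spink1 (3.45), Igf2bp2 (2.61 ± 0.247) and H19 (1.80). Dlk1 changed by 2.88 without tumour-free mutant 1. Ly6d rose by 6.64 ± 0.621 and by 7.24 without 9-month control 2. Afp (1.25) and Gpc3 (-0.05), tumour markers of hepatocellular carcinoma, did not pass. The mutant effect on Afp differed between months by the product term, by 4.8 on the log2 scale and more positive at 9 months, so its joint value does not describe both times.

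Of 30 mitosis genes, 28 were higher and none lower (median 1.45). Top2a was at 2.03, 3.37 and 5.62 CPM in the 2-month mutants against 0.986 to 2.02 CPM (median 1.24) in the 2-month controls, and at 5.67, 6.51 and 4.97 CPM in tumour-free mutants against 1.05, 2.84 and 0.978 CPM in the 9-month controls (1.62 ± 0.263, adjusted p = 6.97e-05). Hmmr (2.32 ± 0.342) and Aurka (1.48 ± 0.226), of the spindle, rose alike. Mutants and controls were apart at both times in only 9 of the 30, and 9 passed in both months when each was fitted alone. Replication genes were less uniform, with 9 of 24 higher and 4 lower (median 0.20). Mcm6 was at 10.5, 13.5 and 14.2 CPM in the 2-month mutants against 4.47 to 5.25 CPM (median 4.83) in the 2-month controls, and at 17.7, 17.4 and 18.7 CPM in tumour-free mutants against 4.82, 6.06 and 4.08 CPM in the 9-month controls (1.59 ± 0.115, adjusted p = 6.8e-09). Mcm2 rose by 1.92 ± 0.179, while Tk1, of nucleotide salvage, fell by 1.51. Pcna (-0.01) did not pass.

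Of 25 genes of collagens and the matrix, 23 were higher and none lower (median 1.41). Loxl2, a collagen cross-linker, was at 9.41, 7.75 and 16.1 CPM in the 2-month mutants against 2.02 to 3.22 CPM (median 3) in the 2-month controls, and at 12.1, 13.2 and 11.8 CPM in tumour-free mutants against 2.55, 4.09 and 3.26 CPM in the 9-month controls (1.94 ± 0.161, adjusted p = 3.57e-08). Col4a1 of basement membranes rose by 1.63 ± 0.158, Mmp14, a membrane protease, by 1.61 ± 0.164, and the fibrillar Col1a1 by 1.67. Of the 10 stellate cell and myofibroblast markers, which share Col1a1, Col3a1 and Dcn with the matrix list, 9 rose, among them Rgs5 (0.85 ± 0.117), Dcn (0.61 ± 0.102) and Hgf (0.97 ± 0.169), but Acta2 of activated myofibroblasts did not pass (-0.42). The summed marker level was 491 to 786 CPM in the 2-month mutants against 265 to 429 CPM in the 2-month controls, and 526 to 739 CPM in tumour-free mutants against 294 to 400 CPM in the 9-month controls. None of the 10 was at 0 in any group, and their part in the matrix result was not tested.

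Of 11 markers of lipid-associated and monocyte-derived macrophages, 8 were higher and none lower (median 1.83). Their sum was 508 to 940 CPM in the 2-month mutants against 136 to 192 CPM in the 2-month controls, and 636 to 796 CPM in tumour-free mutants against 98 to 214 CPM in the 9-month controls. This sum includes Spp1, which is also on the bile duct list. Spp1 was at 170, 108 and 503 CPM in the 2-month mutants against 37.9 to 85.9 CPM in the 2-month controls. Gpnmb, of lipid-laden macrophages, was at 53.5, 214 and 115 CPM in the 2-month mutants against 0.202 to 0.565 CPM (median 0.393) in the 2-month controls, and at 269, 161 and 175 CPM in tumour-free mutants against 1.27, 7.21 and 1.85 CPM in the 9-month controls. It rose by 6.96 ± 0.524, and by 7.73 without 9-month control 2. Lgals3 (4.46 ± 0.266) and Cd68 (2.58 ± 0.15) rose, and Cd9 (-0.22), Lpl (0.04) and Ly6c2 (-0.07) did not pass. Kupffer cell markers rose in 8 of 10 by smaller steps (median 0.63), such as Csf1r (0.82 ± 0.162) and C1qb (0.81 ± 0.151), and in none of the 10 were mutants and controls apart at both times. The Kupffer sum was 553 to 1030 CPM in the 2-month mutants against 401 to 756 CPM in the 2-month controls, and 606 to 652 CPM in tumour-free mutants against 327 to 435 CPM in the 9-month controls. Clec4f, specific to Kupffer cells, rose by 0.45, and Timd4, of resident cells, did not pass (0.27).

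Markers of other cells moved less evenly. Of 9 bile duct markers 3 rose, Cldn7 (5.58 ± 0.355), Epcam (2.66 ± 0.353) and Spp1 (1.44 ± 0.403; it did not pass with the tumours added to the fit), while Krt19 (-0.05), Krt7 (0.15) and Sox9 (0.27) did not pass. Their sum was 167 to 641 CPM in the 2-month mutants against 79.3 to 139 CPM in the 2-month controls, and 112 to 290 CPM in tumour-free mutants against 79.8 to 142 CPM in the 9-month controls, which included Spp1 at 108 to 503 CPM in the 2-month mutants and 45 to 164 CPM in tumour-free mutants. Of 10 sinusoidal endothelial markers 2 rose and 1 fell, with Lyve1 higher (1.19 ± 0.253). Of 9 neutrophil markers 3 passed the expression filter and none was called, and of 10 pancreatic markers 1 passed it and was not called. The B and plasma cell list had 1 riser of 7, Ighm (2.16 ± 0.373, adjusted p = 0.000217), while Cd79a (-0.04) did not pass. The sum of the B and plasma cell markers was 63.5 to 143 CPM in the 2-month mutants against 18.1 to 63.1 CPM in the 2-month controls, and 157 to 253 CPM in tumour-free mutants against 33.8 to 71.4 CPM in the 9-month controls. Of 6 tested markers of red blood cell precursors, 1 fell, 1 rose and 4 globin genes did not pass (-0.48 for Hba-a2). Alas2, of haem synthesis in these cells, was at 13.5 to 27.1 CPM in 2-month mutants against 129 to 220 CPM in 2-month controls, and at 9.57, 20.1 and 13.9 CPM in tumour-free mutants against 248, 177 and 256 CPM in 9-month controls (-3.45 ± 0.244, adjusted p = 8.85e-09). The riser Slc4a1, of the red cell membrane (1.66 ± 0.645, adjusted p = 0.0386), did not exceed 2.89 CPM in any library, and it did not pass without 2-month control 3, 9-month controls 2 or 3, or tumour-free mutant 2 (0.82, adjusted p = 0.266). Of the adipocyte markers 3 of 7 were tested. Cidec rose, Fabp4 did not pass (0.58) and Cfd fell. Cfd, adipsin, held 1 count in total over the mutants of each month. The 9-month controls held 253 counts in total, a ratio of 345 (95% counting interval 61.3 to 13700, lower in mutants).

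MHC class I genes, which display peptides to T cells, rose in 12 of 17 and fell in 1 (median 0.76). H2-T22 was at 141, 138 and 159 CPM in the 2-month mutants against 57 to 71.7 CPM (median 64.6) in the 2-month controls, and at 118, 188 and 171 CPM in tumour-free mutants against 55.8, 55.7 and 58.6 CPM in the 9-month controls (1.30 ± 0.102, adjusted p = 1.78e-08). H2-Q6 (1.25 ± 0.11) and H2-T10 (2.06 ± 0.218) rose, and H2-T23 fell (-0.33), but not without 2-month mutant 2 (adjusted p = 0.0571) or by total count alone. H2 genes are close in sequence and their counts may share reads. Interferon-stimulated genes had 5 of 23 higher and 3 lower (median 0.20), below both shares over all genes. Irf7 (0.58 ± 0.0972) and Ifit2 (1.08 ± 0.185) rose and Irf9 fell (-0.49 ± 0.0797), while Ifit1 (0.01) did not pass. Leaving out any 1 of 9 libraries took the lower calls to 1, and by total count alone 13 were higher and none lower.

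Of 19 clock genes 3 fell and none rose, among them Bhlhe41 (-3.41 ± 0.584) and Nr1d1 (-0.59 ± 0.181). By total count alone Nr1d1 did not pass, and 2 members of the list were higher and 1 lower. At 9 months the libraries numbered 1 stood apart in both genotypes. Tumour-free mutant 1 had the highest value of its group in 21 of 21 immediate early genes and 15 of 15 heat shock chaperones, and 9-month control 1 in 19 and 15. Immediate early genes, switched on within minutes of a stimulus, had 4 of 21 higher and none lower (median 0.40). Their median was 0.88 at 2 months and -0.99 at 9 months, with the same sign in both months in 12 of the 21. The list had 8 higher without both of these libraries, 10 without 9-month control 1 alone, or 2 without 2-month mutant 3. Klf6, a zinc finger factor, rose in both months and did not depend on them (1.62 ± 0.139, adjusted p = 5.73e-08). Gadd45b rose too, by 1.2. Nr4a3 (1.94 ± 0.65, adjusted p = 0.0191) did not pass without 2-month mutant 3 (1.04, adjusted p = 0.153), and changed by 2.78 without 9-month control 1. Heat shock chaperones had 3 of 15 lower and none higher (median -0.20): Hspd1 (-0.69 ± 0.161), Hspe1 (-0.49 ± 0.13) and Hsp90b1 (-0.54 ± 0.188). Without both libraries 2 were higher and 3 lower and the median was 0.0582, and by total count alone 2 were higher and 1 lower. Hsp90b1 did not pass without 9-month control 1 (adjusted p = 0.0617), 2-month mutant 1 (0.0641), or tumour-free mutants 2 (0.0615) or 3 (0.0621).

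Of the 1245 genes called jointly but in neither month alone, the 6 with the largest change at 5 CPM or more were Ctse, Heph, Pck1, Onecut1, Pfkfb3 and Mmd2, and each lost its call without one or another library. Pck1, of gluconeogenesis, was at 194, 2038 and 354 CPM in the 2-month mutants against 901 to 2785 CPM (median 1857) in the 2-month controls, and at 860, 78.9 and 288 CPM in tumour-free mutants against 3324, 1987 and 2181 CPM in the 9-month controls. Its joint change was -1.69 ± 0.598 (adjusted p = 0.0277), and -2.64 without 2-month mutant 2, the only mutant within the control range of its month. It did not pass without 2-month mutant 1 (0.0552) or 3 (0.0642) or tumour-free mutant 3 (0.0654). Ctse, cathepsin E, was at 0.832, 100 and 1.58 CPM in the 9-month controls, and its change of -3.05 (adjusted p = 0.0483) became 0.29 (adjusted p = 0.683) without control 2. It lost the call without any 1 of 11 other libraries too. Heph, a copper oxidase of iron export, was at 26.4, 1.85 and 1.81 CPM in tumour-free mutants, and its change of 1.78 became 0.66 (adjusted p = 0.0545) without mutant 1. Pfkfb3, a regulator of glycolysis, changed by -1.47, and by -0.79 (adjusted p = 0.156) without 9-month control 1. Onecut1 (-1.65, adjusted p = 0.0474) and Mmd2 (-1.35, adjusted p = 0.0489) lost their calls without any of 9 and 10 of the 15 libraries.

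The mutant effect differed between months in 223 genes (1.52% of those tested), by the product of genotype and month, and 1882 had an unadjusted p under 0.05. The effect was more positive at 9 months in 68 of the 223 and more negative in 155. Of the 223, 164 were also called jointly, and 147 of these had the same sign in both months, so they differed in size. Without single libraries the count ran from 109 (without 2-month mutant 2) to 286 (without tumour-free mutant 1), and it was 118, 120 and 148 without tumour-free mutants 2 or 3 or 9-month control 3.

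Protein coding genes called in opposite directions in the 2 months, at 5 CPM or more, numbered 16. The 6 with the smallest p were Acp1, Mgst1, Vac14, Acot4, Acot2 and Cyp2b9. All 6 were higher in mutants at 2 months and lower at 9 months, and their joint change did not pass (adjusted p from 0.255 to 0.665). Mgst1, a microsomal glutathione transferase, was at 6251, 4901 and 4421 CPM in the 2-month mutants against 3344 to 4096 CPM (median 3827) in the 2-month controls, and at 2564, 2142 and 2476 CPM in tumour-free mutants against 4832, 6666 and 4733 CPM in the 9-month controls. The difference between the monthly log2 changes was -1.63 (adjusted p = 0.00125). Acot4, a peroxisomal thioesterase, was at 139, 103 and 91.6 CPM in the 2-month mutants against 30.3 to 67.1 CPM (median 50.7) in the 2-month controls, and at 102, 91.2 and 80.9 CPM in tumour-free mutants against 194, 190 and 122 CPM in the 9-month controls (difference -1.97, adjusted p = 0.00583). Cyp2b9, a P450 of female liver, had mutants at 0.781 to 4 CPM against 0 to 0.9 CPM in controls at 2 months, and at 13.1, 4.44 and 8.17 CPM against 108, 216 and 69 CPM at 9 months (difference -6.46, adjusted p = 0.0069).

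**Figure D5:**
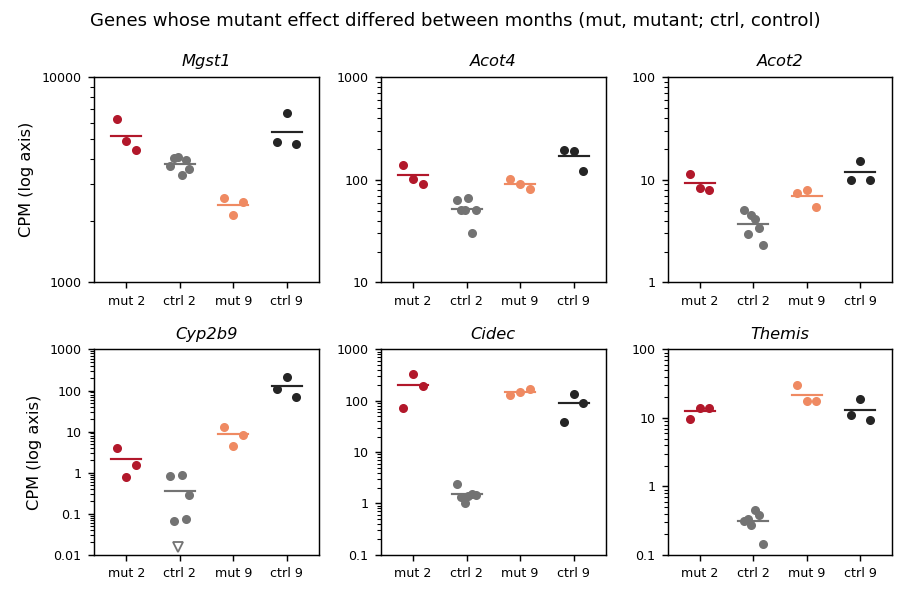
Level in each library (CPM, log axis) of Mgst1, Acot4, Acot2, Cyp2b9, Cidec and Themis, whose mutant effect differed between months, for 2-month mutants, 2-month controls, tumour-free 9-month mutants and 9-month controls, left to right. Points are libraries, bars are group means, and the open triangle on the lower edge is a library without a count. The 9-month controls lie above the 2-month controls in every panel.

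Cidec and Themis were called jointly although neither passed at 9 months alone. Cidec, which enlarges lipid droplets, was at 73.6, 340 and 191 CPM in the 2-month mutants against 1.02 to 2.39 CPM (median 1.44) in the 2-month controls, and at 130, 149 and 168 CPM in tumour-free mutants against 38.9, 138 and 90.5 CPM in the 9-month controls (difference -6.29, adjusted p = 0.000802). The mutants of both times overlapped, and the 9-month controls were above the 2-month controls. Of the 7 adipocyte markers, which include Cidec, Adipoq, Lep, Plin1 and Retn were at 0 in the 2-month mutants. The sum of the 7 was 82.0 to 355 CPM in the 2-month mutants against 5.93 to 12.7 CPM in the 2-month controls, and 142 to 190 CPM in tumour-free mutants against 49.5 to 168 CPM in the 9-month controls. The joint change of Cidec, 4.68, was 3.95 without 2-month mutant 2 and 5.32 to 5.34 without any 1 of the tumour-free mutants. Themis, known from T cell development, was at 9.7, 14.1 and 14.1 CPM in the 2-month mutants against 0.145 to 0.45 CPM (median 0.325) in the 2-month controls, and at 30.1, 17.4 and 17.6 CPM in tumour-free mutants against 11, 19.2 and 9.34 CPM in the 9-month controls (difference -4.58, adjusted p = 0.000185). Of 10 tested T and NK cell markers 3 rose jointly (median 0.11): Themis, Trac and Cd8a (1.25 ± 0.38, adjusted p = 0.0104). Cd8a did not pass without 2-month mutant 3 (adjusted p = 0.0504). The other 7, among them Cd3d (-0.15), Cd3e (-0.09) and Cd3g (0.08), did not pass. Trac, the T cell receptor alpha constant gene, passed at 9 months alone, at 0.846, 1.26 and 2.32 CPM in the 2-month mutants against 0.754 to 1.08 CPM in the 2-month controls, and at 9.24, 37.8 and 31 CPM in tumour-free mutants against 0.998, 0.873 and 1.47 CPM in the 9-month controls (difference 3.91, adjusted p = 0.00576). The T and NK cell sum was 17.5 to 25.7 CPM in the 2-month mutants against 6.34 to 10.7 CPM in the 2-month controls, and 45.5 to 60.2 CPM in tumour-free mutants against 16.6 to 24.4 CPM in the 9-month controls. None of the 12 markers, which include Themis and Trac, was at 0 in any group, and the part of the others in the change of Themis was not tested.

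Among gene classes, long noncoding RNAs had more falls than rises. Of 922 tested, 122 were higher and 389 lower, against 3910 and 3335 of 13210 protein coding genes. By total count alone, 200 lncRNAs were higher and 267 lower, against 7217 and 1434 protein coding genes. Of 254 processed pseudogenes 20 were higher and 31 lower. The largest lncRNA rise at 1 CPM or more with full separation was Lncenc1, known from mouse embryonic stem cells, at 2.42, 4.75 and 5.84 CPM in the 2-month mutants and 5, 32.5 and 21 CPM in tumour-free mutants. It held 1 count in total over the controls of each month, a ratio of 383 (95% counting interval 68 to 15200) at 2 months and 1100 (197 to 43400) at 9 months. Slc6a19os, antisense to Slc6a19, had no count in the 2-month controls, at least 33.8-fold higher in the 2-month mutants. The library kit marks strand, but the strand setting of the counting is unstated, so reads of Slc6a19 and its antisense gene may not be told apart. The third was 4930546K05Rik, at 28.4, 7.69 and 8.39 CPM in the 2-month mutants and 2.44, 4.33 and 1.77 CPM in tumour-free mutants (7.65, and 6.93 without 2-month mutant 1). The largest lncRNA falls were of Gm44787, Gm3734 and Gm12718. Gm44787 had no count in the 2-month mutants, at least 55.3-fold lower than the 2-month controls at 1.42 to 4.4 CPM. Gm3734 varied among the 9-month controls (0.444, 0.273 and 13.1 CPM).

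The most abundant transcripts took a smaller share of the mutant libraries. The 100 most abundant genes of each library held 40.1%, 40.9% and 37.1% of counts in the 2-month mutants against 43.7% to 46.2% in the 2-month controls, and 36.7%, 36.6% and 37.8% in tumour-free mutants against 42.7%, 44.3% and 42.6% in the 9-month controls. No mutant reached a control of its month. The mean difference within months was -5.95 points, and an exact two-sided permutation test within months gave p = 0.000595, the smallest it can give. The mitochondrially encoded share was 4.86% ± 0.543 (SD, n = 3) in 2-month mutants against 5.21% ± 0.58 (n = 6) in 2-month controls, and 4.35% ± 0.706 in tumour-free mutants against 5.15% ± 0.459 in 9-month controls (n = 3 each). That difference, -0.574 points, did not pass the same exact test (p = 0.102). Mitochondrially encoded genes that are near-absent from the counts, such as mt-Co2 and mt-Co3, add next to nothing to the share. It therefore covers only part of the mitochondrial RNA.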

How the data were processed

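Liver RNA was poly(A)-selected, made into strand-marking libraries and sequenced, per the labels' protocols. The authors deposited 1 table of whole-number counts per gene for 19 libraries, with no sign of normalisation. Per the submitters' processing notes the build was GRCm38, and DESeq2 1.22.2, RSEM, STAR 2.6.1a and bedtools 2.27.1 were used; roles, strand setting and annotation: not given in the sources used here. As RSEM is listed, the counts may be rounded estimates, and counting intervals would rest on those.

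The members, gene lists and rules for naming genes were chosen with earlier results of these data known. Of 55421 genes, 14707 passed edgeR's expression filter over the 4 groups. Counts were scaled by TMM and fitted with edgeR 4.0.16 in R 4.3.3 (robust quasi-likelihood, month plus genotype), with Benjamini-Hochberg adjusted p under 0.05 over all genes tested as a call. The product of genotype and month was tested in a second fit, and each month alone in its own. CPM are TMM-scaled. Folds against a group at 0 use a floor of 3 counts over the group; intervals and floors cover counting error only. Each library is 1 animal, but replicates within a genotype are known only by number.

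Named genes are Jun, Fosl2 and Myc; the 12 largest rises and falls among protein coding genes that were called, reached 5 CPM in each month and were fully separated in both; the 4 rises and 4 falls of at least 2-fold with the smallest p; up to 3 members per list with the smallest p; 6 genes called only jointly; 6 called in opposite directions; and 3 lncRNAs each way. Other list members with values were chosen after their values were seen. The lists, 31 of pathways and 12 of cell markers, were written from general knowledge. Gene coordinates come from GENCODE M21.

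Alternatives were DESeq2 1.42.0, limma voom 3.58.1, RLE factors, library size alone, no expression filter, protein coding genes alone, a 2-fold minimum, equal weight of the months, tumours in the fit, the replicate number as a block, no 9-month libraries numbered 1, and leaving out each library. No 2 libraries were identical, and replicates differed by more than counting noise (chi-square per gene at least 6.48). The joint fit and the product term were also tested on simulated data, and the other fits were not. Some genes are not reported here.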

Additional observations from a re-analysis of the deposited data

Results flagged for a closer look

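Among the 6 controls of 2 months, 28 of the 273 genes examined had a library far from the others, by a gap above Dixon's 95% critical value. For normally distributed values, chance alone gives such a gap in about 1 of 20 groups. That rate does not hold for near-silent genes, where any count beside libraries at 0 makes the gap. In 11 of them it was control 2: Acsm4 at 0.0674 CPM against 0 in the others, Smpdl3b at 0.876 against 0.145 to 0.407, Vil1 at 0.539 against 0.289 to 0.379, Ly6d at 3.37 against 1.59 to 1.88, Gadd45b at 3.17 against 0.941 to 1.51, Lgals3 at 10.3 against 5.02 to 6.68, Cyp4v3 at 507 against 355 to 407, Orm2 at 12.7 against 4.87 to 7.31, Dlk1 at 0.0674 against 0, and, on the low side, Alb at 82400 against 98400 to 102000 CPM and Cd79a at 0.337 against 1.19 to 1.57 CPM. Control 1 was high in Sult1e1 (0.502 against 0.0678 to 0.202 CPM), Slco1a4 (168 against 66.4 to 87.8), Cidec (2.39 against 1.02 to 1.52), Ccn2 (12.2 against 3.9 to 4.7) and Acta2 (15.7 against 2.02 to 2.65). Control 3 was high in Bckdha (317 against 261 to 278), Lpin3 (10.8 against 6.78 to 7.95), Eps8l3 (0.136 against 0) and Lncenc1 (0.0678 against 0) and had no count of 4930546K05Rik (0 against 0.0628 to 0.0759). Control 5 was high in mt-Cytb (16700 against 13300 to 14500), Gsta4 (90.1 against 62.9 to 70.8), Cd9 (26.2 against 17.1 to 20.5) and Krt20 (0.0759 against 0), and low in Nr5a2 (47.6 against 75.7 to 85.1). Control 6 was high in Slc15a1 (0.145 against 0) and Hmmr (0.651 against 0.15 to 0.269). Values of Acsm4, Slc15a1, Lncenc1, 4930546K05Rik, Dlk1, Eps8l3 and Krt20 are steps of 1 or 2 counts.

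For 20 of the genes examined the mutant effect differed between months by the product term. The difference of the log2 changes, 9 months minus 2 months, was -6.46 for Cyp2b9, -6.29 for Cidec, -4.58 for Themis, -4.4 for Acot3, -4.01 for Apoa4, -3.81 for Orm3, -2.85 for C8a, -2.28 for Sult2a8, -2.07 for Acot2, -1.97 for Acot4, -1.63 for Mgst1, -1.55 for Fitm1, -1.3 for Abcb4, -1.27 for Me1, -1.02 for Acp1 and -0.935 for Vac14. It was 4.8 for Afp, 3.91 for Trac, 3.26 for Cdh1 and 3.07 for Cyp2c38. Apoa4, Orm3, Abcb4 and Cdh1 were higher in mutants and C8a and Cyp2c38 lower at both times, so these differed in size.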

How the results depend on the processing

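The joint count of 7952 calls ran from 7029 to 7877 when 1 library was left out (higher 3790 to 4182, lower 3239 to 3822), was 8067 with DESeq2 and 8006 with limma voom, and was 1707 (986 higher, 721 lower) when at least a 2-fold change was tested. Library size alone gave 7550 higher and 1786 lower. The difference between months gave 109 to 286 calls without single libraries, 534 with DESeq2 and 54 with the replicate block. At 2 months alone the leave-one-out counts were 4428 to 5980, and at 9 months 3337 (without tumour-free mutant 2) to 4879. The 100-gene share difference stayed between -6.33 and -5.38 points (exact p 0.000893 to 0.00179) and the mitochondrial one between -0.7 and -0.371 (exact p 0.0607 to 0.245). Ctse ran from -3.596 (without 2-month mutant 3) to 0.2912 (without 9-month control 2). Of 223 named genes called jointly, 14 lost the call when some library was left out, 1 (Slc4a1) with DESeq2, 8 with limma voom (Mup7, Mup14 and Mup17 among them), 11 with the tumours in the fit (Spp1 and Dlk1 among them) and 19 by library size alone. By library size alone Stat5b (0.03222, adjusted p = 0.81) and H2-T23 (0.02443, adjusted p = 0.863) had no fall, and Dpp4 (0.2562) and Pcna (0.3439) passed with a rise. Of 44 named genes not called, 16 passed in some alternative, 9 of them by library size alone (Hnf4a, Cps1, Trf, Foxa1, Acox2, Timd4 and Fabp4 besides Dpp4 and Pcna) and 7 without some library; changes of sign of a gene that did not pass are not counted as reversals. Whether the replicate numbers pair the animals is not known. Same-numbered libraries correlated at -0.14, 0.305 and -0.288 at 2 months and 0.41, 0.0215 and -0.1 at 9 months. Differently numbered libraries of the same month ran from -0.372 to 0.436, so these few correlations cannot settle it. With the number as a block the joint fit called 6712 genes and the 2-month fit 3429. In that block 2-month controls 4 to 6 have no same-numbered mutant, so they add nothing to the mutant effect. A lower count there therefore reflects lost controls as well as the block. At 9 months, where each number has both genotypes, the block gave 5179 calls, against 5052 without it. Under that block Myc passed (0.84, adjusted p = 0.00354) and 16 named genes did not, among them Cidec, Themis, Atf3 and Jdp2. The differences between months of Acp1, Mgst1 and Cyp2b9 did not pass either (adjusted p = 0.05, 0.0797 and 0.0797). Genes under about 1 CPM in both genotypes rest on few counts, and 37.4% of the calls are under 1.5-fold.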
